A study of Homo sapiens with 16 samples.

Results

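The genes described here encode AMP-activated protein kinase (AMPK) and its best known activating kinases: PRKAA1 and PRKAA2 for the catalytic alpha subunits, PRKAB1 and PRKAB2 for the beta subunits, PRKAG1 and PRKAG2 for the gamma subunits, STK11 (LKB1) and CAMKK2. These 8 genes were selected from 60719 gene identifiers, because PRKAG1 was far higher in 231:TKO+siNT than in parental 231+siNT cells and because AMPK acts on TXNIP. The comparison of the siNT-treated cells is therefore given as a description, with no test of these genes. All 8 genes passed the filter on low counts in every comparison.

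RNA was sequenced from MDA-MB-231, an established line of human triple-negative breast cancer. Parental 231 cells are the unedited line, and 231:TKO cells carry a CRISPR/Cas9 deletion of TXNIP and were isolated from single cells, so that knockout and clone cannot be told apart. There were 2 replicates of each population without treatment. Cells of each population were also treated for 48 hours with a non-targeting siRNA (siNT) or an siRNA against Myc (siMyc), in 3 replicates per group. Each library was deposited as raw read counts per gene, and CPM here are counts scaled to a common library total with factors from the trimmed mean of M-values (TMM).

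AMPK is a heterotrimer of a catalytic alpha subunit, a scaffolding beta subunit that can bind glycogen, and a gamma subunit that binds adenine nucleotides. LKB1 phosphorylates the activation loop of the alpha subunit, which AMP bound to the gamma subunit promotes, and CAMKK2 does so when calcium rises. Active AMPK restrains anabolic pathways and phosphorylates TXNIP, which marks TXNIP for degradation and allows more glucose uptake. Myc, a transcription factor that binds E-box sequences, drives growth and biosynthesis and so places the demands that AMPK senses.

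Total counts lay between 18953668 and 59799444 per library. TXNIP was at 283 CPM in both untreated parental 231 libraries, and at 12.4 and 45.5 CPM in 231:TKO replicates 1 and 2, which differed more from each other than the parental replicates did. TXNIP did not pass the edgeR test between these untreated groups, so a missing call there does not show that a gene is unchanged. In siRNA-treated cells TXNIP lay between 302 and 467 CPM in parental 231 and between 6.54 and 10.2 CPM in 231:TKO. MYC mRNA fell by 1.21 on the log2 scale with siMyc in 231:TKO (edgeR adjusted p = 1.69e-11) and by 0.96 in parental 231 (edgeR adjusted p = 0.0297). The mesenchymal markers VIM and CD44 were high in all libraries, with lowest values of 1814 and 571 CPM, and ESR1 and PGR were at or below 0.305 CPM. ERBB2, another receptor that this line does not overexpress, lay between 76.2 and 106 CPM. The epithelial marker CDH1 was at or below 9.42 CPM and lower in 231:TKO. Among markers of other cell types, PTPRC, ACTA2 and COL1A1 had highest values of 1.48, 3.33 and 20.3 CPM, and PECAM1 was matched to no identifier. The deviations of parental 231+siNT replicate 1 and parental 231+siMyc replicate 3 from their group means correlated across 13448 genes (r = 0.90, a description, since genes share these libraries), so results on parental cells are also given without this pair.

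In untreated cells, PRKAG2 was the only one of the 8 genes that passed the test between the populations, and it was 1.35-fold higher in 231:TKO. In bulk RNA, a change in every cell and a change in the share of cells that carry the mRNA cannot be told apart. With siMyc present, 6 of 8 genes passed the test between 231:TKO and parental 231, namely PRKAA1, PRKAA2, PRKAB2, PRKAG1 and PRKAG2, which were higher in 231:TKO, and PRKAB1, which was lower. PRKAG1 is among these 6 and was selected on its difference between the same populations with siNT. The siMyc-treated libraries held 34644125 to 39527700 counts in 231:TKO and 51488933 to 59799444 in parental 231. Each of these populations was also counted with its own annotation release. Genotype and such differences between the sets of libraries cannot be told apart for any of the 6 genes. Over all genes tested, 9.61% were called in the untreated comparison and 40.6% in the siMyc-treated one. Myc knockdown lowered PRKAA2 and raised PRKAB1 and PRKAB2 in 231:TKO, 3 of 8 genes against 27.2% of all genes tested. In parental 231 cells 0 of 8 genes passed the test for siMyc, where 0.594% of all genes did. PRKAA2, at an unadjusted edgeR p of 0.00186, was the single member below 0.05, beside 3462 of 23728 genes tested. DESeq2 called PRKAA2 alone in that comparison.

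**Figure D1:**
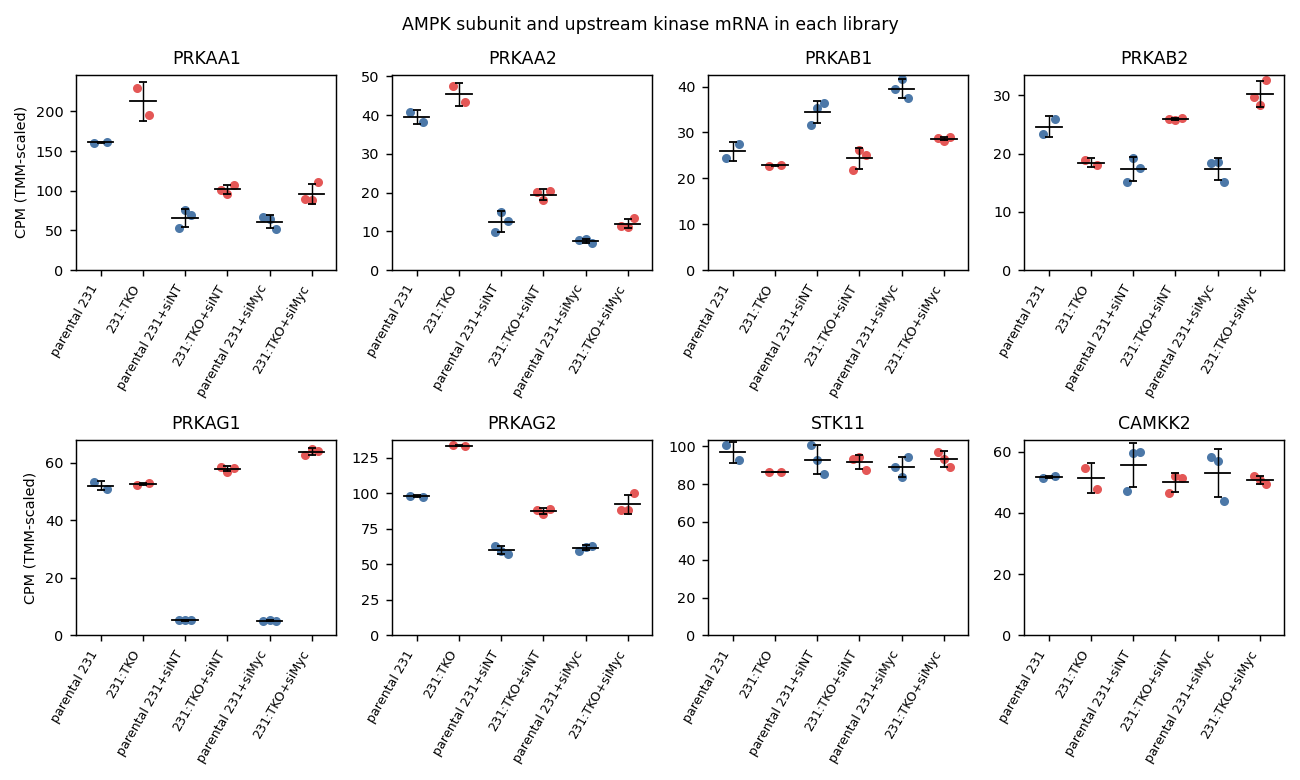
TMM-scaled CPM of the 8 genes in each of 16 libraries, with the group means (lines) and SD (error bars). Blue points are parental 231 and red points 231:TKO libraries, and each vertical axis starts at 0. PRKAG1 lies between 51.1 and 64.8 CPM in 4 groups and between 4.92 and 5.38 CPM in both siRNA-treated parental groups.

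Levels can be compared between genes per kilobase of exon. In untreated parental 231 cells, PRKAA1 was the most abundant at 24.5 CPM per kilobase, followed by PRKAG1 at 12.5, STK11 at 11.0, CAMKK2 at 7.21 and PRKAG2 at 5.96. PRKAB2, PRKAB1 and PRKAA2 followed at 4.51, 4.28 and 4.22 CPM per kilobase, and the ranges of these neighbours overlapped. PRKAG3, the gamma subunit typical of skeletal muscle, had 0 counts in all 16 libraries. These exon lengths cover all isoforms of a gene, which is 16427 bases for PRKAG2 and 4166 for PRKAG1. Untreated and siRNA-treated libraries differ in read type as well as treatment, and their levels were not tested against each other.

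PRKAA1 made up most of the alpha pair. Its share of PRKAA1 plus PRKAA2 per kilobase was 84.8% to 85.8% in parental 231 and 86.5% to 87.4% in 231:TKO. With siNT the shares were 87.8% to 88.7% and 87.7% to 88.4%, and with siMyc they were 91.3% to 92.5% and 91.8% to 92.2%. The siMyc range lay above the siNT range in both populations. The beta pair was nearly even in untreated cells, where PRKAB1 was 48.5% to 48.8% of the pair in parental 231 and 52.0% to 53.4% in 231:TKO. In siNT-treated cells PRKAB1 was 62.2% to 65.3% of the pair in parental 231 and 43.2% to 47.7% in 231:TKO.

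**Figure D2:**
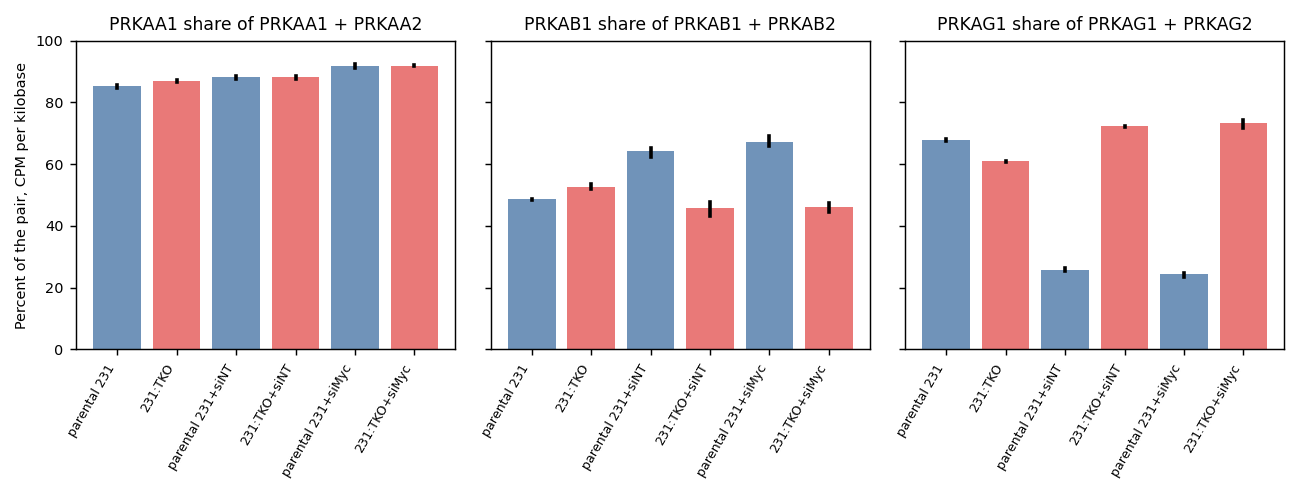
Share of the first gene in each subunit pair, as percent of the pair's CPM per kilobase, with bars at the group mean and black lines from the lowest to the highest replicate. The PRKAA1 share is highest with siMyc, and the PRKAG1 share falls to 23.6% to 26.3% in the siRNA-treated parental groups, from 60.7% to 74.3% in the others.

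PRKAG1 (ENSG00000181929, GRCh38 chromosome 12, 49002274 to 49018807, minus strand) encodes the widely expressed gamma subunit. The selection rested on its siNT values, which were 58.5, 57.0 and 58.3 CPM in 231:TKO and 5.38, 5.19 and 5.17 CPM in parental 231, an 11.3-fold difference. In the siMyc-treated libraries, which the selection did not use, PRKAG1 was at 62.6, 64.8 and 64.3 CPM in 231:TKO and at 4.99, 5.19 and 4.92 CPM in parental 231. That is 12.7-fold higher in 231:TKO (log2 fold change 3.67, SE 0.10, edgeR adjusted p = 3.74e-11), with every 231:TKO library above every parental one. The siMyc comparison is of the same populations as the siNT one, so this test is not independent of the selection.

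In untreated cells PRKAG1 did not follow this pattern. It was at 53.2 and 51.1 CPM in parental 231 and at 52.4 and 52.9 CPM in 231:TKO, and the groups overlapped. The log2 difference was 0.01 with a 95% interval from -0.17 to 0.18, which is a change of at most 1.13-fold upwards (edgeR adjusted p = 0.962). The low values thus occurred in the siRNA-treated parental libraries and in no untreated library.

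Those 6 libraries were also the ones counted with another annotation. According to the file headers, Ensembl release 102 served for every untreated library and for 231:TKO with either siRNA, and release 104 for parental 231 with either siRNA. The PRKAG1 exons were the same in both releases. Release 104, however, added ENSG00000288710 (chromosome 12, 49002274 to 49024075), a gene on the same strand that shared 2061 of the 4166 exon bases of PRKAG1 (49.5%). The shared bases included the whole 3′ block of 733 bases and a further block of 498 bases, while the blocks nearest the 5′ end were not shared. ENSG00000288710 itself received between 0 and 2 counts in the 6 libraries, and adding them to PRKAG1 left its log2 differences at 3.50 with siNT and 3.66 with siMyc. Reads assigned to neither gene are in no count, so this sum could not bring them back and cannot show the part of the overlap.

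**Figure D3:**
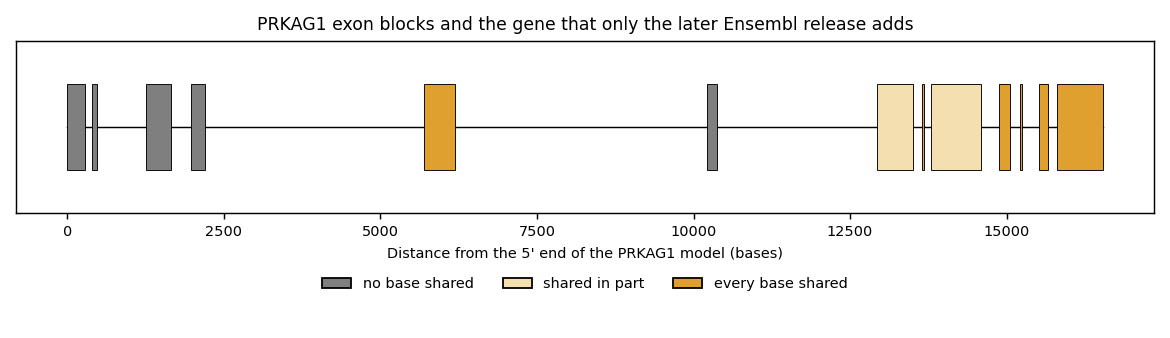
Exon blocks of the PRKAG1 model drawn to scale by distance from its 5′ end (horizontal axis, bases), coloured by whether the gene added in Ensembl release 104 shares no base, some bases or every base of the block. Of 4166 exon bases, 2105 are not shared, and the block at the 3′ end, of 733 bases, is shared in full.

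In the counting, the gene overlapping most bases of a read took it, and a read that overlaps a pair of genes equally is assigned to neither under that setting. The siNT-treated parental cells kept 9.06% of the PRKAG1 level of 231:TKO+siNT cells. Of the exon bases, which cover all isoforms, 50.5% stayed unshared. That is a share of bases and not of reads, and how the reads were spread over the bases was not measured. Genotype and annotation release cannot be told apart in the siRNA-treated libraries, and the part of the release in the PRKAG1 difference was not tested. The untreated libraries, with 1 release for both genotypes, are the ones in which this limit does not arise.

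Other genes gained such an overlap as well. With a limit of 40% of exon bases, set after the values had been seen, and a mean of at least 1 CPM, 4 genes shared exons with a same-strand gene found only in release 104. They were PRKAG1, RIGI, USP49 and NUDT21. In the siNT comparison, where 36.8% of all genes tested were called, RIGI (a cytosolic RNA sensor) was higher in 231:TKO by 4.94 on the log2 scale, NUDT21 (a pre-mRNA cleavage factor) by 1.40 and USP49 (a deubiquitinase) by 1.10. In untreated cells their log2 differences were -0.80, -0.01 and -0.06. Of 13548 genes with no overlap by a gene found in only 1 release, 4.93% exceeded 1 on the log2 scale in the siNT comparison. These values are descriptions of a few genes chosen by their overlap, and the part of the release in them was not tested.

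The genes nearest to PRKAG1 in their pattern were also listed, by a measure that includes the siNT values of the selection. Among 13399 genes with a mean of at least 1 CPM, the 5 whose log2 condition means lay nearest to those of PRKAG1 over the 6 conditions were SNX14 (root mean square difference 0.21), PTGS1 (0.30), MAN1C1 (0.34), ENSG00000227706 (0.38) and HSPA12A (0.55). SNX14, a sorting nexin, went from 111 CPM in untreated parental cells to 11.2 CPM with siNT and 11.4 CPM with siMyc, against 89.2 and 98.4 CPM in siRNA-treated 231:TKO cells. Its exons differed between the releases, and other genes overlapped 6.92% of them in release 102 and 19.3% in release 104. PTGS1, a cyclooxygenase, had the same exons and no overlap in either release, and was at 1.65 CPM in parental 231+siNT and 16.9 CPM in 231:TKO+siNT. HSPA12A and ENSG00000227706 likewise had unchanged exons without overlap, and MAN1C1 had changed exons without overlap. The 5 genes were chosen for this pattern, so sharing it is no separate result, and its cause was not tested.

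**Figure D4:**
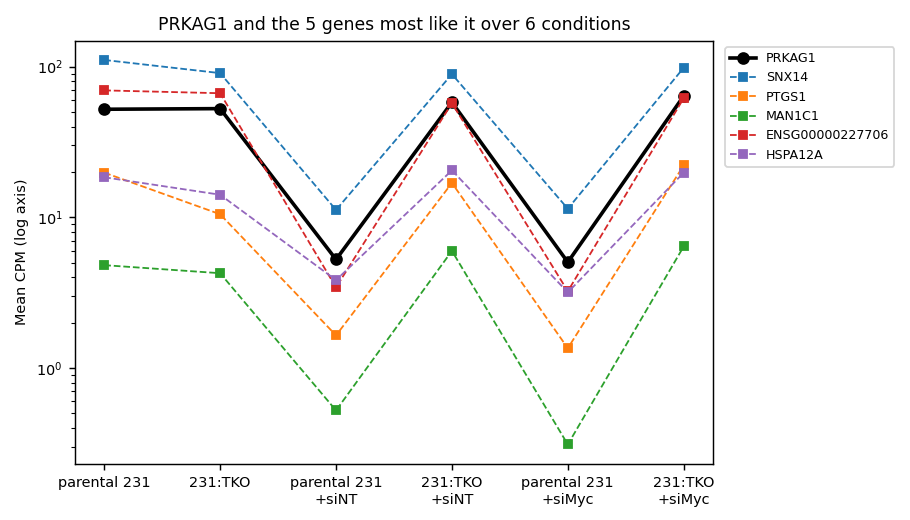
Mean CPM (log axis) of PRKAG1 and of the 5 genes nearest to it, in the 6 conditions. All 6 genes are lowest in the 2 siRNA-treated parental groups, which follows from how the 5 were chosen. PRKAG1 is at 5.25 and 5.04 CPM there.

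The siNT libraries that entered the selection of PRKAG1 are also the baseline of its response to siMyc, which is therefore given with no test. The log2 change was 0.11 (SE 0.054) in 231:TKO and -0.05 (SE 0.11) in parental 231. The difference between these responses was 0.19 with an interval from -0.06 to 0.43.

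PRKAG2 (chromosome 7, 151556124 to 151877125, minus strand) encodes the gamma subunit whose mutation is known from a glycogen storage cardiomyopathy. It was at 98.3 and 97.6 CPM in untreated parental 231 and at 134 and 133 CPM in 231:TKO, and the groups did not overlap. The log2 fold change was 0.44 (SE 0.056, edgeR adjusted p = 0.0161). With siMyc PRKAG2 was at 59.5, 62.0 and 62.9 CPM in parental 231 and at 88.1, 88.4 and 100 CPM in 231:TKO, a log2 fold change of 0.59 (SE 0.093, edgeR adjusted p = 0.000216). With siNT the values were 62.7, 59.5 and 57.2 CPM against 88.2, 85.4 and 88.7 CPM. Every 231:TKO library thus lay above every parental library within each treatment. The untreated call is not firm, because the edgeR adjusted p rose to 0.0511 with the replicate number as a block. Log2 fold changes lay between 0.42 and 0.45 over all alternatives. Fits without parental 231 replicate 1 or 2 left 1 parental library and cannot show how firm the call is. The knockout effect with siMyc exceeded the untreated one by 0.11 on the log2 scale, with an interval from -0.18 to 0.40 (edgeR adjusted p = 0.688). Genes within 10 Mb of PRKAG2 had a median log2 difference of 0.01 in untreated cells and 0.12 with siMyc.

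**Figure D5:**
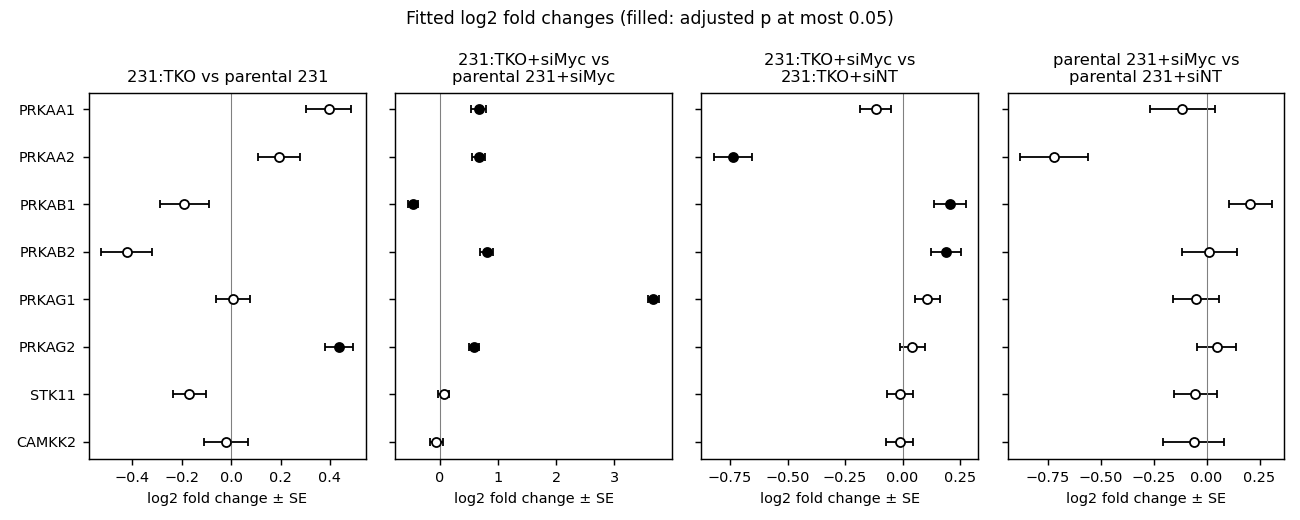
Log2 fold changes with SE (horizontal axis, with its own scale in each panel) of the 8 genes in 4 comparisons, with filled points for an edgeR adjusted p of at most 0.05. PRKAG1 stands at 3.67 in the siMyc-treated populations and at 0.01 in the untreated ones, and PRKAA2 lies near -0.7 in both siMyc panels.

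PRKAA2 (chromosome 1, 56645314 to 56715335, plus strand), the less abundant catalytic subunit here, showed the largest response to siMyc among the 8 genes. In 231:TKO it went from 20.1, 18.0 and 20.4 CPM with siNT to 11.4, 11.2 and 13.4 CPM with siMyc. The groups did not overlap, and PRKAA2 fell by 0.74 on the log2 scale (SE 0.082, edgeR adjusted p = 6.71e-07), to 0.60 of the siNT level. In parental 231 it went from 9.83, 15.1 and 12.6 CPM to 7.68, 7.94 and 7.03 CPM, and every siMyc library was below every siNT library. There the log2 change was -0.72 (SE 0.16) and did not pass the test (edgeR adjusted p = 0.0902). It passed with a factor for the pair of libraries that stood apart (-0.71, edgeR adjusted p = 4.5e-09), without that pair (-0.83, edgeR adjusted p = 6.89e-05) and without parental 231+siNT replicate 1 alone (-0.87, edgeR adjusted p = 0.0418). The responses of the populations differed by 0.01 on the log2 scale, with an interval from -0.38 to 0.40 (edgeR adjusted p = 1).

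The upstream sequence of PRKAA2 is shown because its change with siMyc was the largest among the 8 genes in both populations. It comprises the 250 bases before the start site, GRCh38.p14 chr1:56645064-56645313, plus strand, from RefSeq, and capitals mark the E-box letters CANNTG.

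PRKAA2 upstream: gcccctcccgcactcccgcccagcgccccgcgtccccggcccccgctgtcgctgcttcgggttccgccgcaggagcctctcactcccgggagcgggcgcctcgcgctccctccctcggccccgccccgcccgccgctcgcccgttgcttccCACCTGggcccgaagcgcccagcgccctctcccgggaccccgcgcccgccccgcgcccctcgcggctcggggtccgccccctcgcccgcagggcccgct

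The window had a GC content of 83.2%. It held a single CANNTG match, which begins 99 bases before the start, and no match of CACGTG, the E-box form that Myc binds best. CANNTG includes CACGTG, and both read the same on either strand. Upstream windows of the same length held CANNTG in 61.8% and CACGTG in 6.35% of 35116 RefSeq promoters. None of the windows of the other 7 genes, of which PRKAG2 has 5, held CACGTG. A match is a description of letters, and its absence says nothing about sites elsewhere.

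Between populations, PRKAA2 was higher in 231:TKO with siMyc by 0.67 on the log2 scale (SE 0.11, edgeR adjusted p = 0.000367). In untreated cells it was at 40.8 and 38.2 CPM in parental 231 and at 47.5 and 43.3 CPM in 231:TKO, a log2 difference of 0.19 (SE 0.086, edgeR adjusted p = 0.24). That value passed the test under no alternative that kept both 231:TKO libraries. Without 231:TKO replicate 2 the log2 difference was 0.25.

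PRKAA1 (chromosome 5, 40759379 to 40798374, minus strand), the main catalytic subunit, was at 160 and 162 CPM in untreated parental 231 and at 230 and 195 CPM in 231:TKO. The groups did not overlap, and the log2 difference of 0.39 (SE 0.091) did not pass the test (edgeR adjusted p = 0.0615), although it did with DESeq2 (0.39, DESeq2 adjusted p = 0.0253). The log2 difference was 0.26 without 231:TKO replicate 1 and 0.50 without 231:TKO replicate 2. Those fits had 1 library of 231:TKO and so held no spread between 231:TKO libraries. The 57 expressed genes within 10 Mb of PRKAA1 had a median log2 difference of 0.38 in the same comparison, against 0.01 over all expressed genes. The part of this regional shift in the PRKAA1 value was not tested. With siMyc, PRKAA1 was at 66.8, 63.9 and 51.5 CPM in parental 231 and at 89.2, 88.4 and 110 CPM in 231:TKO. It was higher by 0.67 on the log2 scale (SE 0.12, edgeR adjusted p = 0.000667), beside a regional median of 0.23. With siNT the values were 53.6, 75.8 and 69.0 CPM in parental 231 and 101, 96.3 and 108 CPM in 231:TKO, again without overlap. The response of PRKAA1 to siMyc was -0.12 (SE 0.068, edgeR adjusted p = 0.241) in 231:TKO and -0.11 (SE 0.15, edgeR adjusted p = 0.817) in parental 231. Without 231:TKO+siMyc replicate 3, PRKAA1 passed the test in 231:TKO (-0.22, edgeR adjusted p = 0.00056).

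PRKAB1 and PRKAB2 encode the beta subunits that hold the trimer together. PRKAB1 (chromosome 12, 119667864 to 119681624, plus strand) was at 24.4 and 27.4 CPM in untreated parental 231 and at 22.8 CPM in both 231:TKO libraries, a log2 difference of -0.19 (SE 0.10, edgeR adjusted p = 0.312). With siMyc it was at 39.5, 41.6 and 37.5 CPM in parental 231 and at 28.8, 28.2 and 29.0 CPM in 231:TKO. It was lower in 231:TKO by a log2 difference of -0.46 (SE 0.092, edgeR adjusted p = 0.0014), and genes within 10 Mb had a median of -0.25. With siNT the values were 31.6, 35.3 and 36.4 CPM in parental 231 and 21.9, 26.1 and 25.0 CPM in 231:TKO.

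PRKAB1 rose with siMyc in 231:TKO by 0.20 on the log2 scale (SE 0.069, edgeR adjusted p = 0.0304). In parental 231 the log2 change was 0.21 (SE 0.10, edgeR adjusted p = 0.401), with every siMyc library above every siNT library. With the factor for the pair of parental libraries it was 0.21 (edgeR adjusted p = 0.00116), and without that pair 0.17 (edgeR adjusted p = 0.048). In 231:TKO the call was lost without siNT replicate 1 (0.14) or 3 (0.22) and without siMyc replicate 1 (0.20) or 2 (0.21), at edgeR adjusted p between 0.0662 and 0.223.

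PRKAB2 (chromosome 1, 147155106 to 147172550, minus strand) did not pass the test in untreated 231:TKO and was higher in 231:TKO with siMyc. In untreated cells it was at 23.3 and 25.9 CPM in parental 231 and at 19.0 and 18.0 CPM in 231:TKO, and the groups did not overlap. The log2 difference was -0.42 (SE 0.10, edgeR adjusted p = 0.0707). It was -0.47 without 231:TKO replicate 1 and -0.39 without 231:TKO replicate 2, in fits with 1 library of 231:TKO. With siMyc PRKAB2 was at 18.4, 18.6 and 15.2 CPM in parental 231 and at 29.7, 28.4 and 32.7 CPM in 231:TKO, which was higher by 0.80 (SE 0.11, edgeR adjusted p = 6.5e-05). With siNT it was at 15.2, 19.3 and 17.6 CPM in parental 231 and at 26.0, 25.8 and 26.1 CPM in 231:TKO. Genes within 10 Mb had medians between -0.10 and 0.00 in these comparisons.

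The knockout effect on PRKAB2 with siMyc exceeded that in untreated cells by 1.18 on the log2 scale (SE 0.17, edgeR adjusted p = 0.000168). This contrast of treatments called 2 of 8 genes, PRKAB2 and PRKAG1, against 17.7% of all genes tested. Single reads were counted in untreated libraries and read pairs in the others, and parental 231 with siRNA was counted with another release, so treatment and library type cannot be told apart there. Except for PRKAG1, the 8 genes had the same exons and the same overlapping genes in both releases. Other differences between these sets of libraries, such as total counts, remain. PRKAB2 rose with siMyc in 231:TKO by 0.19 (SE 0.065, edgeR adjusted p = 0.0367) and changed by 0.01 in parental 231 (SE 0.13, edgeR adjusted p = 0.98). The rise lost its call without siNT replicate 1 (0.19), 2 (0.18) or 3 (0.19) and without siMyc replicate 1 (0.20) or 3 (0.13), at edgeR adjusted p between 0.0529 and 0.106.

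The responses to siMyc were not shown to differ between the populations for any of the 7 genes for which this was tested. Of 25812 genes tested with edgeR, 0% were called and 1039 had an unadjusted edgeR p under 0.05, and DESeq2 called 6 genes. For PRKAB2 the interval of the difference ran from -0.11 to 0.52 on the log2 scale, and for PRKAB1 from -0.25 to 0.30.

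STK11 and CAMKK2 varied least between groups. STK11 means lay between 86.6 and 96.9 CPM in the 6 conditions and CAMKK2 means between 50.0 and 55.6 CPM. For STK11 the log2 differences between 231:TKO and parental 231 were -0.17 (interval -0.34 to 0.00) in untreated cells and 0.07 (interval -0.13 to 0.27) with siMyc. For CAMKK2 they were -0.02 (interval -0.25 to 0.21) and -0.06 (interval -0.30 to 0.19). Neither gene passed the test for siMyc in either population, at log2 changes from -0.06 to -0.01. CAMKK2 was called lower in 231:TKO with siMyc only without parental 231+siMyc replicate 3, one of the pair of libraries that stood apart (-0.18, edgeR adjusted p = 0.0193).

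Other AMPK pathway genes were described by 6 lists of 51 genes, of which 50 were tested. In untreated 231:TKO 4 were higher and 5 lower, where 9.61% of all genes tested were called, with a median log2 difference of 0.01, against 0.00 over all genes tested. With siMyc 19 were higher and 11 lower in 231:TKO, where 40.6% of all genes were called, with a median of 0.13, against -0.01 over all genes tested. Myc knockdown in 231:TKO raised 10 and lowered 8, where 27.2% of all genes were called. In parental 231 edgeR called 0 of 50, where the share of all genes was 0.594%, so that this count is no result about the pathway. The unadjusted edgeR p there was under 0.05 for CAB39L, PPM1E, MELK, HDAC5, HDAC7 and SESN2. Over all genes tested, it was under 0.05 for 3462 of 23728.

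Of 6 upstream components, STRADB, a pseudokinase partner of LKB1, was higher in untreated 231:TKO by 0.61 (edgeR adjusted p = 0.0395) and, with siMyc, by 0.29 (edgeR adjusted p = 0.027). Over all genes tested, 9.61% were called in untreated cells, 27.2% for siMyc in 231:TKO and 40.6% between the siMyc-treated populations. The scaffold genes CAB39 and CAB39L rose with siMyc in 231:TKO by 0.18 and 0.23, and MAP3K7 (TAK1) fell by 0.16 on the log2 scale. CAB39L and MAP3K7 were higher in 231:TKO with siMyc by 0.47 and 0.56. Of 4 phosphatases, PPM1E was lower in untreated 231:TKO by a log2 difference of -2.71 (edgeR adjusted p = 0.00963) and fell with siMyc in 231:TKO by 0.65, and PPP2CA and PPP2CB were lower with siMyc in 231:TKO than in parental 231, with log2 differences of -0.23 and -0.55. PPM1E was higher in 231:TKO in that comparison, by 1.62.

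Of 21 direct substrates, 1 was higher and 2 were lower in untreated 231:TKO, where 9.61% of all genes were called. TBC1D1, a regulator of glucose transporter traffic, was higher by 0.51 (edgeR adjusted p = 0.0366). SREBF1, the regulator of lipid synthesis, and GYS1, glycogen synthase, were lower, with log2 differences of -1.72 (edgeR adjusted p = 0.00297) and -0.36 (edgeR adjusted p = 0.0351). The siMyc means in parental 231 and 231:TKO were 59.1 and 59.5 CPM for TBC1D1. They were 269 and 230 CPM for SREBF1 and 70.5 and 59.7 CPM for GYS1. With siMyc in 231:TKO, beside 27.2% called over all genes, 7 substrates rose, namely FOXO3, HDAC5, HDAC7, PFKFB2, PPARGC1A, SREBF1 and TSC2, by 0.18 to 0.44. In the same comparison 3 fell, which were the glycolytic activator PFKFB3 by 0.49, HDAC4 by 0.31 and ACACA (acetyl-CoA carboxylase) by 0.19. Between the siMyc-treated populations, beside 40.6% called over all genes, 7 substrates were higher in 231:TKO, with the largest difference for PPARGC1A (2.40, edgeR adjusted p = 9.28e-09), and 3 were lower, with the largest for PFKFB3 (-0.48, edgeR adjusted p = 0.00196).

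Of 13 AMPK-related kinases, which LKB1 also activates with the exception of MELK, SIK2 and SIK3 were higher in untreated 231:TKO by 0.45 and 0.56, and BRSK2 was lower by a log2 difference of -3.32 (edgeR adjusted p = 0.0277). This was beside 9.61% called over all genes, and BRSK2 had only 3 and 11 counts in untreated 231:TKO. The siMyc means in parental 231 and 231:TKO were 52.8 and 48.6 CPM for SIK2. They were 35.5 and 38.4 CPM for SIK3 and 1.77 and 1.19 CPM for BRSK2. With siMyc in 231:TKO, NUAK1 rose by 0.33 and MELK, MARK2 and MARK3 fell by 0.34, 0.18 and 0.15, where 27.2% of all genes were called. Between the siMyc-treated populations 4 of these kinases were higher and 4 lower in 231:TKO, where 40.6% of all genes were called. Of 6 nutrient-sensing partners, FLCN was lower in untreated 231:TKO by a log2 difference of -0.51 (edgeR adjusted p = 0.0478). With siMyc FLCN, FNIP1, FNIP2 and SESN1 were higher in 231:TKO by 0.61 to 1.38 and SESN2 and SESN3 were lower, with log2 differences of -0.50 and -0.74. For siMyc edgeR called 0 of these 6 within either population, beside 27.2% of all genes in 231:TKO and 0.594% in parental 231. The unadjusted edgeR p was under 0.05 for FLCN and FNIP1 in 231:TKO and for SESN2 in parental 231. Over all genes tested, it was under 0.05 for 7988 of 22450 in 231:TKO and 3462 of 23728 in parental 231.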

How the data were processed

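Per the file headers, the authors deposited raw counts per gene for 16 libraries, made with STAR on GRCh38 and featureCounts 1.6.3, on the reverse strand and by largest overlap, with no normalization. The STAR version is not given in the sources used here. Single reads were counted in untreated and read pairs in siRNA-treated libraries. Symbols other than the identifier were found for 41094 of 60719 identifiers.

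Groups followed the labels. In each comparison, a gene entered the test if its libraries together held more than 5 counts. Tests used edgeR 4.0.16 (R 4.3.3; quasi-likelihood, TMM, robust), adjusted by Benjamini-Hochberg over all genes tested and called at an adjusted p of at most 0.05. Interaction contrasts compared responses. Alternatives included DESeq2 1.42.0, other filters and scaling, a replicate block and leaving out each replicate. The study names the replicates biological, but sources of separate cultures are not in the labels, so p-values measure the spread between these samples.

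The 8 genes and the lists were chosen with earlier results of these data known. Genes named were these 8, TXNIP, MYC, genes sharing exons with them, list genes past the test, and the 5 nearest PRKAG1 by log2(CPM + 0.5). A gene overlapped by one found only in release 102 is not reported here. The fits were tested on simulated counts.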

Additional observations from a re-analysis of the deposited data

Results flagged for a closer look

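PRKAB2 was singled out because its knockout effect differed between treatments: the effect with siMyc minus the untreated effect was 1.18 on the log2 scale (edgeR adjusted p = 0.000168), from a difference of -0.42 in untreated cells to 0.80 with siMyc. All 3 siMyc-treated 231:TKO libraries were above all 3 parental ones, and both untreated 231:TKO libraries were below both parental ones. Values under the alternatives ran from 1.10 to 1.26. PRKAG1 was singled out for the same reason, with a difference of 3.62 (edgeR adjusted p = 5.63e-11) and a range of 3.58 to 3.68 under the alternatives. For both genes the annotation release differs between the siMyc-treated populations and not between the untreated ones, so genotype and release cannot be told apart in that contrast.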

How the results depend on the processing

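No result changed direction past the threshold under any alternative run. Of 808 single-gene values under alternatives, 771 stayed the same, 22 passed the threshold anew, 14 lost it and 1 without a test moved. Staying the same means the same side of the threshold. For values without a test it means a shift smaller than the SE of the main fit. In untreated cells the count of called genes among the 8 was 1, and became 2 with DESeq2, 2 without a filter, 0 at an adjusted p of at most 0.01 and 0 to 4 when 1 replicate was left out. For siMyc in 231:TKO it was 3, and became 1 at 0.01, 1 in 1 fit of the 12 siRNA libraries and 1 to 3 with 1 replicate left out. For siMyc in parental 231 it was 0, and became 1 with DESeq2, 1 without a filter, 1 in the fit of 12 libraries and 0 to 1 with 1 replicate left out. Alternatives chosen after seeing the data gave 2 there, both with a factor for the pair of parental libraries that stood apart and without that pair. Between siMyc-treated populations it was 6 to 7, for the contrast of treatments 2 to 3 and for the difference of siMyc responses 0 throughout.

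Same-numbered replicates did not consistently deviate together (r from -0.81 to 0.63). The highest r was for replicate 2 of parental 231+siNT and parental 231+siMyc. The labels do not state that the number pairs samples, and the main fits did not use it. With a replicate block, the count in untreated cells was 0, with 904 instead of 1919 genes called in all, and no other count among the 8 changed. Over all genes, the 1919 calls in untreated cells became 229 at an adjusted p of at most 0.01, 0 without either parental replicate, and 7002 or 6797 without 231:TKO replicate 1 or 2. The 6106 calls for siMyc in 231:TKO became 2493 in the fit of 12 libraries. The 141 calls in parental 231 became 1099 with DESeq2, 91 with its size factors in edgeR, 330 without a filter, 225 with more than 5 counts in every library, 1666 in the fit of 12 libraries, 0 at 0.01 and with the block, 0 to 160 with 1 replicate left out, 6363 with the factor and 4673 without the pair. The 4469 calls of the contrast of treatments became 2542 at 0.01 and 2544 to 5754 with 1 replicate left out, and the 0 calls for the difference of responses became 6 with DESeq2, 147 with the factor and 63 without the pair. The cause of these shifts was not tested. The untreated comparison has 2 replicates a group, which limits what it can show. Where an untreated arm had 1 library left, it was assumed to vary like the other group.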
